A study of Mus musculus with 6 samples.

Results

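Antibody light chains come from 2 loci in the mouse, kappa on chromosome 6 and lambda on chromosome 16. The transcripts of both loci were examined in whole kidneys of female mice at 6 months of age. The control group was 3 MRL/MpJ mice (MRL), and the diseased group was 3 MRL/MpJ-Fas lpr/lpr mice (LPR), which have the same background and carry the lpr mutation of Fas in all cells. All 6 mice were kept under specific pathogen-free conditions, and each gave 1 array with no pooling. The members were all array probes, other than controls, that lay in fixed windows of build mm9 around the kappa locus on chromosome 6 or the lambda locus on chromosome 16, and whose annotation named an immunoglobulin, Igk or Igl gene or a bare Ensembl transcript. This gave 113 of the 56605 probes on the array. Of these, 106 lay in the kappa locus, where they read 96 named segments, and 7 lay in the lambda locus, where they read 5 genes. The kappa probes were 2 for the constant region Igkc and 104 for 95 variable segments. The lambda probes were 1 for Iglc1, 2 for Iglc3, 2 for Iglv1, 1 for Iglv3 and 1 for Gm10088, a predicted gene that RefSeq lists as a pseudogene and that has no immunoglobulin name. No probe was named for a joining segment. The members run from 67505984 to 70676945 on chromosome 6 and from 19028679 to 19241363 on chromosome 16.

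A light chain is made when a developing B cell joins 1 variable segment to 1 joining segment, and the joined exon is spliced to a constant region. Each mature B cell clone carries its own joined variable segment, while the constant region is shared by all clones that use the same locus. Light chain transcripts are low in resting B cells and very abundant in plasma cells, the antibody-secreting stage of the lineage. MRL mice with the lpr mutation are a model of systemic lupus erythematosus in which lymphocytes gather around kidney vessels. In an array of bulk tissue, fewer cells of a type and less RNA per cell cannot be told apart.

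Every member was read by 1 sequence of 60 bases, and those that the results turn on are given 5′ to 3′ as the array annotation has them. The first are the probe of Igkc at chr6:70676692-70676751 (forward), the probe of Iglc1 at chr16:19061905-19061964 (reverse), and the probe of Igkv1-110, the variable segment with the largest fitted change, at chr6:68221019-68221078 (forward).
Igkc: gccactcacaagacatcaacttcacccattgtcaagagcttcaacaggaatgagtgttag
Iglc1: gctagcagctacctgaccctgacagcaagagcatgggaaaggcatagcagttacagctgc
Igkv1-110: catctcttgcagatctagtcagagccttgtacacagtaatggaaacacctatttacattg

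Several segments were read by probes that overlap each other, and capitals mark the bases that both probes of a segment share. For Iglc3 these were A_51_P483576 at chr16:19065462-19065521 and A_55_P2145224 at chr16:19065480-19065539 (both reverse), with 42 shared bases. For Igkv14-126 they were A_55_P2167347 at chr6:67846563-67846622 and A_66_P122898 at chr6:67846583-67846642 (both forward), with 40 shared bases. For Igkv6-13 they were A_55_P2003915 at chr6:70407495-70407554 and A_52_P422297 at chr6:70407505-70407564 (both reverse), with 50 shared bases.
Iglc3, A_51_P483576: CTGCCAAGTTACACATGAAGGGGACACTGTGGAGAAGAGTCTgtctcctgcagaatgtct
Iglc3, A_55_P2145224: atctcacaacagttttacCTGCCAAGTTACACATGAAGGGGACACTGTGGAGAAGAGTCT
Igkv14-126, A_55_P2167347: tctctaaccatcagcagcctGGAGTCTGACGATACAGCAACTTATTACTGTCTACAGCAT
Igkv14-126, A_66_P122898: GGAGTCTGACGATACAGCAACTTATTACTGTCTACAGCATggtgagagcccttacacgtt
Igkv6-13, A_55_P2003915: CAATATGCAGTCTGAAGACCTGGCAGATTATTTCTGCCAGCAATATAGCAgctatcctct
Igkv6-13, A_52_P422297: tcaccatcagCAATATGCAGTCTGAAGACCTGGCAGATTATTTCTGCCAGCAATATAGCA

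Other probes carry the names of different segments but differ from each other by at most 6 bases, so their targets may share signal. There were 10 such members, and capitals mark the bases that differ within each of 3 of the pairs. Igkv4-68 (chr6:69254828-69254887) and Igkv4-62 (chr6:69349806-69349865) differed at 5 bases, Igkv6-13 and Igkv6-15 (chr6:70356463-70356522) at 5, and Igkv4-56 (chr6:69537297-69537356) and Igkv4-53 (chr6:69598826-69598885) at 6, all on the reverse strand.
Igkv4-68: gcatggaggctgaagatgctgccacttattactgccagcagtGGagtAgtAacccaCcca
Igkv4-62: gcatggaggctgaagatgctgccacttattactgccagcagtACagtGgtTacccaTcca
Igkv6-13: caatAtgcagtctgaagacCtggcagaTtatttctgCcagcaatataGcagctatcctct
Igkv6-15: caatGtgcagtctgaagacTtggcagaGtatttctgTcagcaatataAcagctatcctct
Igkv4-56: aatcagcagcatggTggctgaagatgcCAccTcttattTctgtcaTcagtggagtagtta
Igkv4-53: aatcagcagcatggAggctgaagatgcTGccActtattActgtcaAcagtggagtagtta

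Levels are given as log2 signal relative to the 75th percentile of the array, so that 0 is the percentile itself and negative values lie below it. Log2 changes are given as the mean of LPR less the mean of MRL mice. Tests covered the 39924 probes that stood well above background on 3 or more of the 6 arrays, and those with an adjusted p under 0.05 in limma over all of them were called. Between 69.6% and 73.5% of spots were well above background and no spot was saturated, so that the number of arrays limits the precision. Arrays of 1 group correlated at r of 0.990 to 0.993 and arrays of different groups at 0.961 to 0.971. The brighter Fas probe lay at -0.37 to -0.06 in MRL mice and at -1.25 to -0.37 in LPR mice and did not pass (adjusted p = 0.234 in limma), and a dim one was higher in LPR mice (adjusted p = 0.0338 in limma). Where these probes lie relative to the lpr insertion was not examined, so that they do not check the labels. The tissue label was checked with Slc34a1, Lrp2, Cubn and Kap of the proximal tubule, all 4 of which were measured.

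Light chain transcripts were higher in the kidneys of LPR mice across both loci. Of the 113 members, 101 were tested and 12 were not. In limma 95 of the 101 were higher in LPR mice (94.1%), against 6.53% of all probes tested, and 6 did not pass. None was lower, against 6.17% of all probes tested, and none had a negative change, so that 0 were lower at an unadjusted p under 0.05 as well. A filter on low signal can favour probes that are high in only 1 group. For this reason the 62 members that were well above background on all 6 arrays were also counted by themselves: 62 of 62 were higher, against 5.46% of all such probes, with a median log2 change of 5.11. At least a 10-fold rise was fitted for 91 members (90.1%), against 1.09% of all probes tested, and 60 of the 91 were well above background in every MRL mouse. Light chain probes thus made up 20.8% of the 437 probes with such a rise and 0.200% of the probes on the array. Over the 101 tested members the median log2 change was 5.11, or 34.5-fold, and it was 4.96 with undetected MRL signals raised to the detection limit. After normexp background correction the median was 3.84 and 65 members were at least 10-fold higher. The median over all probes tested was -0.14.

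The order of the mice was nearly complete for single probes: in 100 of the 101 tested members every LPR mouse lay above every MRL mouse (99.0%), against 11.0% of all probes tested. The filter on low signal can favour this order. The exception, Igkv16-104, was not above background on all 6 arrays, so none of the 62 members that were had overlapping groups. The share among all probes of that kind was not counted. The median level of all 113 members was -4.92 in MRL 1, -4.07 in MRL 2 and -3.30 in MRL 3. It was 0.47 in LPR 1, 1.26 in LPR 2 and 1.01 in LPR 3. The MRL mice were not without light chain transcripts, as 66, 76 and 81 of the 113 members were well above background in MRL 1, MRL 2 and MRL 3. In LPR 1, LPR 2 and LPR 3 the numbers were 104, 104 and 102. For a single value, 3 mice in each group allow no exact p under 0.1.

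**Figure D1:**
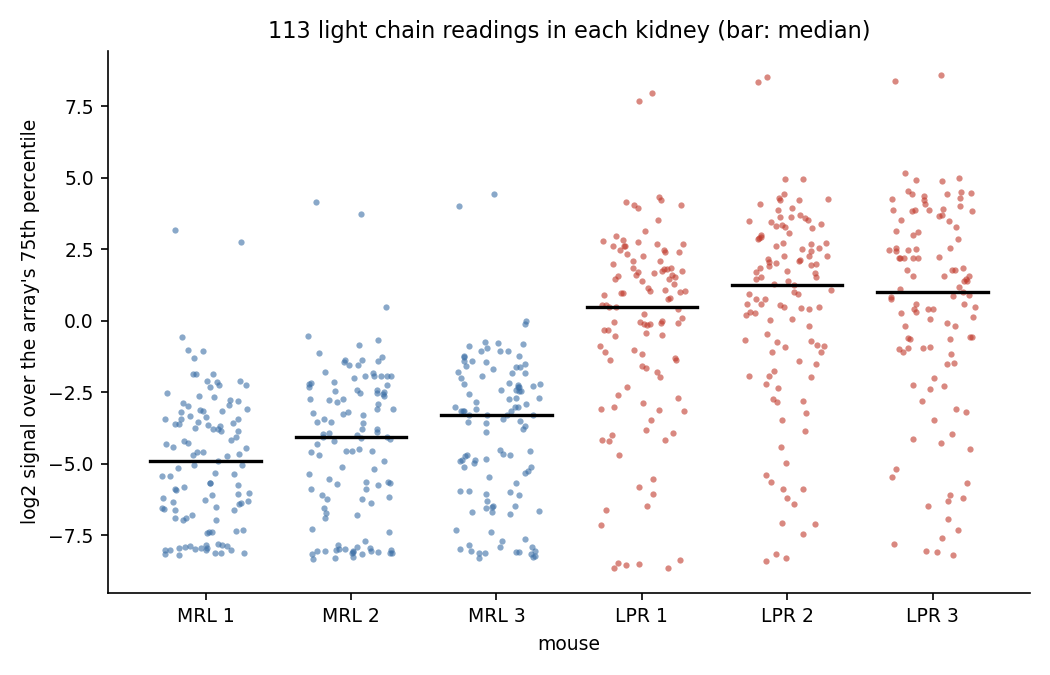
Log2 signal relative to the array's 75th percentile (vertical axis) of the 113 light chain probes in each of the 6 mice (horizontal axis, MRL in blue, LPR in red). Each point is a probe and each bar the median, which lies between -4.92 and -3.30 in MRL mice and between 0.47 and 1.26 in LPR mice.

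The position of the arrays on the slide was not balanced between the groups. The 3 MRL arrays and LPR 1 sat on 1 side of the slide, and LPR 2 and LPR 3 on the other side. With the side as a block, 65 members were higher, against 3.65% of all probes. Within the shared side, which sets LPR 1 alone against the 3 MRL mice, 47 were higher, against 2.80% of all probes, and the lone LPR array was taken to vary as the MRL arrays did. Both fits take each change from LPR 1 and the MRL mice alone, so that their sizes are the same by design and only the error differs. The median log2 change of the members was then 4.65, and 100 of the 101 tested members had a positive change.

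Igkc, the constant region that all kappa chains share, rose about as much at both of its probes. With the probe printed above, A_55_P2060897, the levels were 2.75, 3.71 and 4.01 in MRL 1 to 3 and 7.68, 8.34 and 8.38 in LPR 1 to 3. The lowest LPR mouse stood well above the highest MRL mouse. The log2 change was 4.64 (standard error, SE, 0.35, 25.0-fold, adjusted p = 0.000273 in limma). The other probe, A_55_P2727321 (chr6:70676886-70676945), gave 3.17, 4.13 and 4.41 in MRL mice and 7.95, 8.51 and 8.57 in LPR mice. Its log2 change was 4.44 (SE 0.34, 21.7-fold, adjusted p = 0.000277 in limma). With both probes MRL 1 was the lowest MRL mouse and LPR 1 the lowest LPR mouse, and within the shared slide side the changes were 4.19 and 4.05.

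All 6 probes of the lambda immunoglobulin genes were higher in LPR mice, with log2 changes from 4.96 to 5.98 and a median of 5.53. Iglc1, a lambda constant region, was read at -2.11, -0.52 and -1.06 in MRL mice and at 4.14, 4.95 and 5.16 in LPR mice. The groups did not overlap, and the log2 change was 5.98 (SE 0.44, 63.3-fold, adjusted p = 0.000244 in limma). Iglc3, another lambda constant region, differed from Iglc1 in how little the mice of a group varied. Its probe A_55_P2145224 gave -1.03, -1.14 and -1.06 in MRL mice and 3.93, 3.94 and 4.06 in LPR mice. Its log2 change was 5.05 (SE 0.10, 33.2-fold, adjusted p = 6.33e-06 in limma). The overlapping probe A_51_P483576 gave -0.56, -0.67 and -0.83 in MRL mice and 4.20, 4.27 and 4.35 in LPR mice, a change of 4.96.

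The lambda variable segments rose as well. Iglv1 was read by A_55_P1987406 (chr16:19085111-19085170) at -2.81, -1.44 and -1.63 in MRL mice and at 2.80, 3.86 and 4.0 in LPR mice, a log2 change of 5.51. The other Iglv1 probe, A_51_P503757, is placed from 19063348 to 19085165 on chromosome 16, far more than its 60 bases. Its bases therefore do not lie together in the genome, and whether it reaches a joining segment was not examined. Its log2 change was 5.55 (SE 0.40, adjusted p = 0.000224 in limma). Iglv3 was read by A_55_P2147547 at -6.53, -5.76 and -5.26 in MRL mice and at 1.05, -0.18 and -1.10 in LPR mice. Only 1 of 3 MRL mice had it well above background, and LPR 1 was the highest mouse here, whereas LPR 3 was the highest with each of the other 5 lambda probes. The log2 change of Iglv3 was 5.78 (SE 0.56, adjusted p = 0.000885 in limma). Gm10088 was not well above background on any array and was not tested.

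**Figure D2:**
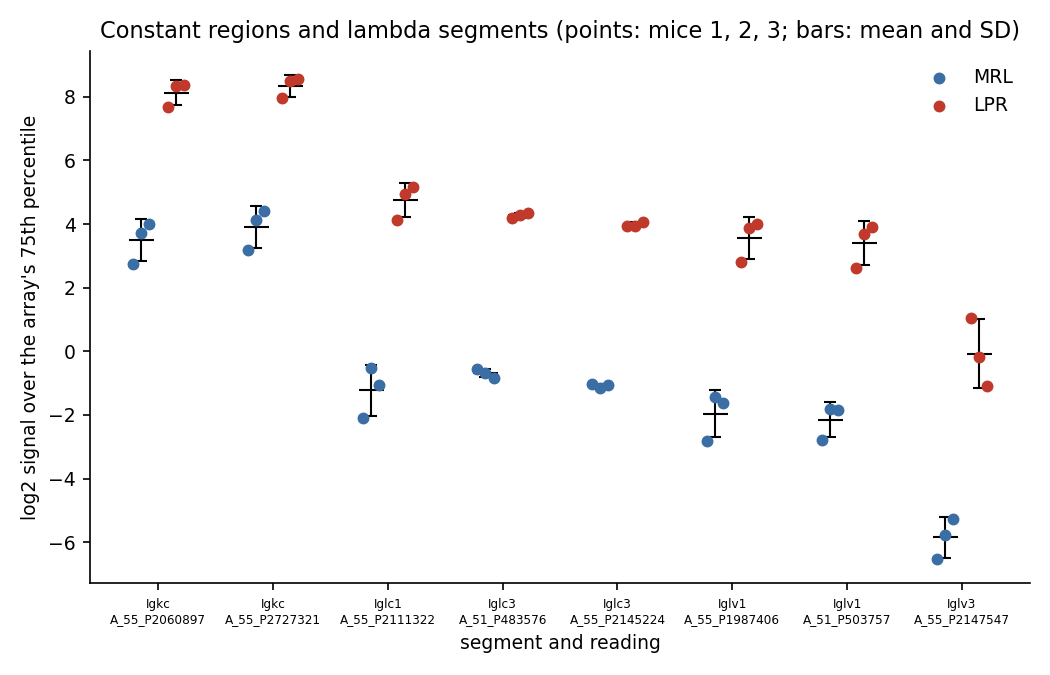
Log2 signal relative to the array's 75th percentile (vertical axis) for the Igkc, Iglc1, Iglc3, Iglv1 and Iglv3 probes (horizontal axis), with MRL mice in blue and LPR mice in red. Points are mice 1, 2 and 3 from left to right and bars are the mean and SD (n = 3). The groups are apart at each probe, and the Iglc3 mice lie closest together.

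Because each array reads all genes, the change of a lambda constant region can be set against that of Igkc in the same mouse. The difference between Iglc1 and the mean of the Igkc probes was -5.07, -4.43 and -5.27 in MRL mice and -3.67, -3.48 and -3.31 in LPR mice. Every LPR mouse lay above every MRL mouse, and Iglc1 rose 1.44 more than Igkc on the log2 scale (exact permutation test, two-sided, n = 3 and 3, p = 0.10, adjusted p = 0.167 over 5 such differences), where 0.1 is the smallest p possible. For Iglc3 the difference was -3.76, -4.82 and -5.15 in MRL mice and -3.75, -4.32 and -4.27 in LPR mice, and the groups overlapped (exact permutation p = 0.400). The median of the kappa variable probes that were above background on all 6 arrays rose 0.47 more than Igkc (exact permutation p = 0.10). These tests describe unequal changes within arrays, not amounts of kappa and lambda RNA.

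Among the 104 kappa variable probes, 93 entered the test, of which 87 rose in LPR mice, with a median log2 change of 5.11. The number before the hyphen in a segment name is its subfamily, which groups segments of like sequence. In the Igkv4 subfamily, which has the most probes, 26 of 26 tested probes were higher, with a median of 5.28. In Igkv1, 10 of 10 were higher with a median of 6.14, and in Igkv3, 9 of 9 with a median of 5.13. The medians were lower in Igkv6 (9 of 10 higher, median 4.0) and Igkv8 (7 of 7 higher, median 3.85). Small subfamilies lay at both ends, with medians of 6.43 in Igkv12 (3 of 4 higher), 6.39 in Igkv17 (2 of 2) and 6.29 in Igkv10 (2 of 2), and single tested probes of Igkv13 and Igkv16 at 1.58 and 0.20. With undetected MRL signals raised to the detection limit, Igkv17 came to 5.64 and Igkv13 to 0.61. RefSeq lists 5 of the 95 segments as pseudogenes, and 4 of their 6 probes were tested and higher. One of these segments is Igkv14-126.

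The largest changes among variable probes that were above background on all 6 arrays belonged to the Igkv1, Igkv12 and Igkv10 subfamilies. The 8 largest were those of Igkv1-110, Igkv1-117, Igkv1-132, Igkv12-41, Igkv1-122, Igkv12-44, Igkv10-94 and Igkv12-46, from 7.44 down to 6.38. Igkv1-110 was read at -5.05, -4.55 and -4.97 in MRL mice and at 2.09, 1.83 and 3.82 in LPR mice. The MRL mice lay close together and LPR 3 stood above the other LPR mice. Its log2 change was 7.44 (SE 0.50, 173-fold, adjusted p = 0.000165 in limma). The size depended on the processing, with 5.53 after normexp background correction, where Igkv12-46 had 6.02 and Igkv1-117 had 5.93, 6.95 within the shared slide side and 6.82 without LPR 3. Igkv1-117 had the same order, with -4.31, -3.10 and -3.59 in MRL mice and 2.81, 2.52 and 4.89 in LPR mice (log2 change 7.08). Igkv12-41 varied in the other group, with -4.08, -2.77 and -0.90 in MRL mice and 4.04, 4.25 and 3.86 in LPR mice (log2 change 6.63, adjusted p = 0.00148 in limma). Within the shared slide side the same change of 6.63 did not pass (adjusted p = 0.0812 in limma), nor did those of Igkv12-44, Igkv12-46 and Igkv10-94.

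The smallest changes among these probes were still rises, and most were in Igkv6 and Igkv8. They were those of Igkv4-72, Igkv8-19, Igkv15-103, Igkv8-21, Igkv6-25, Igkv6-15, Igkv2-109 and Igkv6-13, from 1.37 up to 3.83. Igkv8-19 was read at -2.33, -2.44 and -2.33 in MRL mice and at -0.16, 1.28 and 0.57 in LPR mice. The log2 change was 2.93 (SE 0.33, adjusted p = 0.00186 in limma). The rise of Igkv15-103 (3.51, adjusted p = 0.0200 in limma) did not pass when MRL 1, LPR 2 or LPR 3 was left out, with adjusted p from 0.0575 to 0.0654. That of Igkv8-21 (3.55, adjusted p = 0.0333 in limma) did not pass without MRL 3, LPR 1, LPR 2 or LPR 3, with adjusted p from 0.0653 to 0.0974. Within the shared slide side the change of Igkv15-103 was 1.97 (adjusted p = 0.165 in limma), and Igkv8-21 (adjusted p = 0.232), Igkv6-15 (0.0785) and Igkv6-13 (0.0671) did not pass either.

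The rise was found along the whole kappa locus. The variable segments lie on 1 side of Igkc, up to 3171 kb from it, and were described in 3 distance ranges. Within 1000 kb of Igkc 34 of 37 tested probes were higher, with a median log2 change of 4.89. Between 1000 and 2000 kb these were 28 of 29 with a median of 5.25, and beyond 2000 kb 25 of 27 with a median of 5.63. With undetected MRL signals raised to the detection limit, the medians were 4.89, 5.13 and 5.08. Kappa segments lie in both orientations, and the median was 5.15 for 34 tested probes in forward and 5.09 for 59 in reverse order. Differences between the ranges and orders were not tested. Subfamilies are not spread evenly over the locus, so that distance and subfamily cannot be told apart here.

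**Figure D3:**
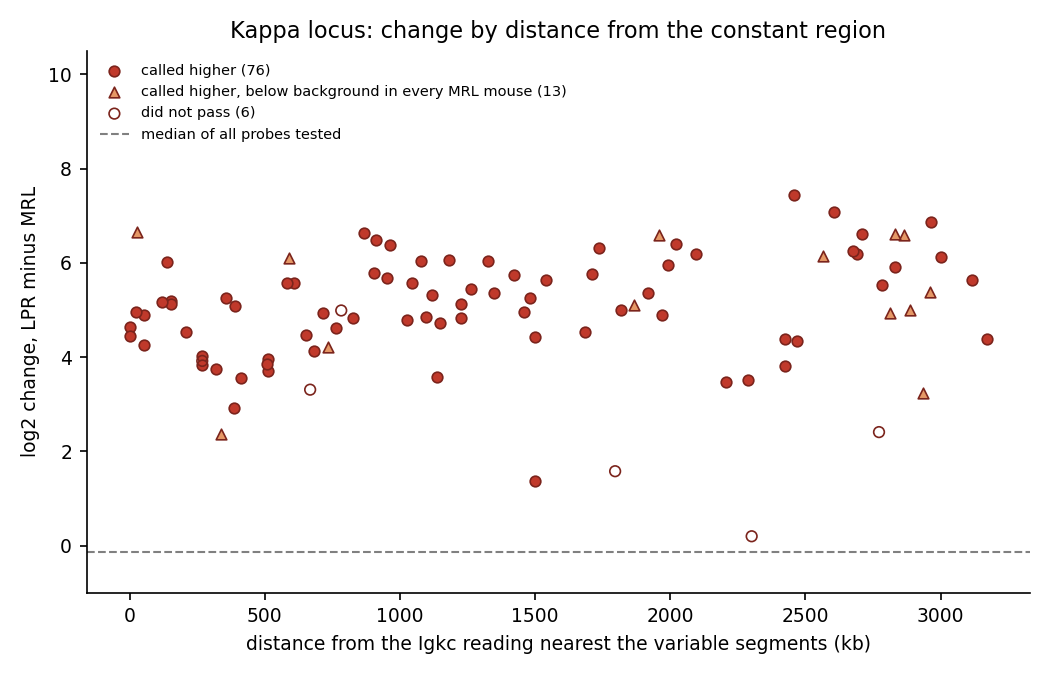
Log2 change, LPR minus MRL (vertical axis), against the distance in kb from Igkc (horizontal axis) for the tested kappa probes. Filled circles were called higher, triangles were called higher and not well above background in any MRL mouse (fitted values, not bounds), open circles did not pass, and the dashed line is the median of all probes tested, -0.14. Rises lie along the whole locus, and 2 probes with a change under 1.5 are those of Igkv4-72 and Igkv16-104.

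For 16 members no MRL mouse and every LPR mouse was well above background, so the rise has only a lower bound. To obtain it, dim MRL signals were set to the lowest signal well above background on their array. The mean of the LPR mice was then divided by that of the MRL mice. A single probe can go undetected at a signal above that lowest one, so that the bounds are approximate. For 9 of the 16 the bound was at least 10-fold. Of all 56605 probes, 477 were of this kind, and 50 of the 477 had such a bound. The 5 largest were at least 55.1-fold for Igkv14-126 (A_66_P122898), 38.5-fold for Igkv3-2, 33.9-fold for Igkv17-127, 30.0-fold for Igkv6-29 and 24.7-fold for Igkv4-91. Igkv3-2 was read at -7.43, -7.92 and -6.68 in MRL mice and at -0.43, -0.69 and -0.93 in LPR mice (adjusted p = 3.63e-05 in limma). The bound of Igkv14-126 rests on very different LPR mice, at -0.03, 2.72 and -3.19.

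Of the tested members, 6 did not pass, and all 6 are kappa variable probes. Igkv16-104 was the only one of the 6 whose groups overlapped. It was read at -6.28, -4.89 and -5.94 in MRL mice and at -8.63, -4.40 and -3.47 in LPR mice, with a log2 change of 0.20 (SE 1.25, adjusted p = 0.928 in limma). It was well above background in 1 MRL and 2 LPR mice, and LPR 1 was the lowest of all mice, so that its change turned to -2.92 within the shared slide side. Igkv12-38 (4.99, adjusted p = 0.0587), Igkv7-33 (3.31, adjusted p = 0.0540), Igkv9-123 (2.41, adjusted p = 0.0810) and Igkv13-85 (1.58, adjusted p = 0.0859) had positive log2 changes that did not pass in limma. The remaining one is a probe of Igkv6-13. The 12 members not tested were Gm10088 and 11 kappa variable probes, of which 6 were well above background on no array and 5 in 1 or 2 LPR mice.

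Where a segment had several probes, their log2 changes differed most for Igkv4-72, and their calls were the same except for Igkv6-13. For Igkv6-13, A_66_P112234 gave 3.83 (SE 0.39, adjusted p = 0.00111) and A_55_P2003915 gave 4.03 (SE 0.88, adjusted p = 0.0295), while A_52_P422297 gave 3.92 (SE 1.44, adjusted p = 0.123), all in limma. The 3 changes were alike and the errors were not: MRL 2 was read at -8.04 and -8.15 with the overlapping probes shown above and at -3.88 with the other. Igkv4-72 was the exception in size. The probe A_52_P535990 (chr6:69176986-69177045) was read at -2.53, -1.54 and -1.63 in MRL mice and at 1.61, 2.45 and 3.53 in LPR mice, a log2 change of 4.43 (SE 0.50, adjusted p = 0.00178 in limma). The other, A_55_P2376423 (chr6:69176852-69176911, reverse), gave -2.68, -2.53 and -2.41 in MRL mice and -1.97, -0.91 and -0.64 in LPR mice, a change of 1.37 (SE 0.33, adjusted p = 0.0393 in limma). Its sequence is shown for that reason.
Igkv4-72, A_55_P2376423: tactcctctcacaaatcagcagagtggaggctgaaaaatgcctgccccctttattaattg

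The difference between the Igkv4-72 probes within an array was -0.15, -1.0 and -0.78 in MRL mice and -3.58, -3.36 and -4.17 in LPR mice (exact permutation p = 0.10, adjusted p = 0.167). The pair stands out by these same values, so that this p is no support for the difference. The call of A_55_P2376423 was lost when any mouse other than LPR 1 was left out, at adjusted p from 0.0871 to 0.115 in limma, and within the shared slide side its change was 0.57 (adjusted p = 0.141). The probe A_52_P535990 is also within 5 bases of the probe of Igkv4-54, whose log2 change was 4.85. Among the pairs of near-identical probes printed above, Igkv4-68 (5.75) and Igkv4-62 (6.03) changed about equally, as did Igkv6-13 (4.03) and Igkv6-15 (3.74). Igkv4-56 (3.58) and Igkv4-53 (6.04) did not, although they differ at only 6 bases. Only 1 of 3 MRL mice had Igkv4-56 well above background, and RefSeq lists Igkv4-56, but not Igkv4-53, as a pseudogene.

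The mice of a group differed more in light chain signal than in the signal of most other probes. Among the 100 members that were well above background in every LPR mouse, the range from the lowest to the highest LPR mouse had a median of 1.52 on the log2 scale. It exceeded 1 in 70.0% of them and 2 in 24.0%. For all 37701 probes of this kind the median range was 0.33, and it exceeded 1 in 3.96%. Probes called at least 10-fold higher are a closer comparison. Outside the loci their median range was 0.57 over 346 probes, with 26.9% over 1. Among the 91 members called so it was 1.53, with 69.2% over 1. In MRL mice the median range was 1.42 over 62 members and 0.24 over 36960 probes. Among probes called at least 10-fold higher it was 1.47 over 60 members and 0.78 over 173 other probes. Heavy chain constant regions also ranged widely, with a median of 1.76 over 7 genes in MRL mice and of 0.99 over 8 in LPR mice, and Ighg3 ranged over 4.85 and 1.55. The probes are not independent of each other, and these ranges were not tested.

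**Figure D4:**
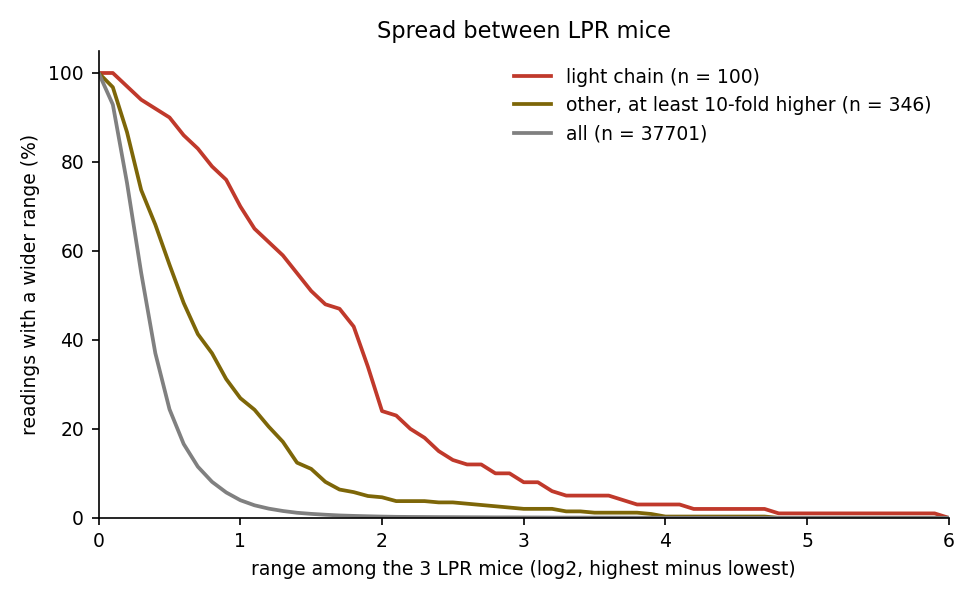
Share of probes in percent (vertical axis) whose range among the 3 LPR mice exceeds a given log2 size (horizontal axis), for light chain probes, for other probes called at least 10-fold higher, and for all probes well above background in every LPR mouse. At a range of 1 the shares are 70.0%, 26.9% and 3.96%. The light chain probes shown were not selected by their call, unlike the second set.

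The order of the LPR mice differed from one subfamily to another. In all 26 Igkv4 probes that were above background in every LPR mouse, LPR 3 was the highest and LPR 1 the lowest mouse, and the subfamily medians were 0.98, 1.99 and 2.92 in LPR 1, LPR 2 and LPR 3. LPR 3 was also the highest mouse in 9 of 10 Igkv1 probes and 3 of 3 Igkv2 probes, but in Igkv1 the lowest was LPR 2 in 6 of the 10. Igkv3 went the other way, with LPR 2 highest in 6 of 9 and LPR 3 lowest in 6 of 9, and its medians were 1.51, 2.26 and 1.18. LPR 3 was lowest in 2 of 2 Igkv10, 3 of 4 Igkv12 and 4 of 5 Igkv14 probes. MRL mice had an order of their own: MRL 3 was the highest in 18 of 22 Igkv4, 3 of 3 Igkv12 and 2 of 2 Igkv10 probes that were above background in every MRL mouse, and MRL 1 the lowest in 21 of the 22 Igkv4 probes. Probes of a subfamily have similar sequences and may read each other's transcripts, so that their common order is not that of independent segments.

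**Figure D5:**
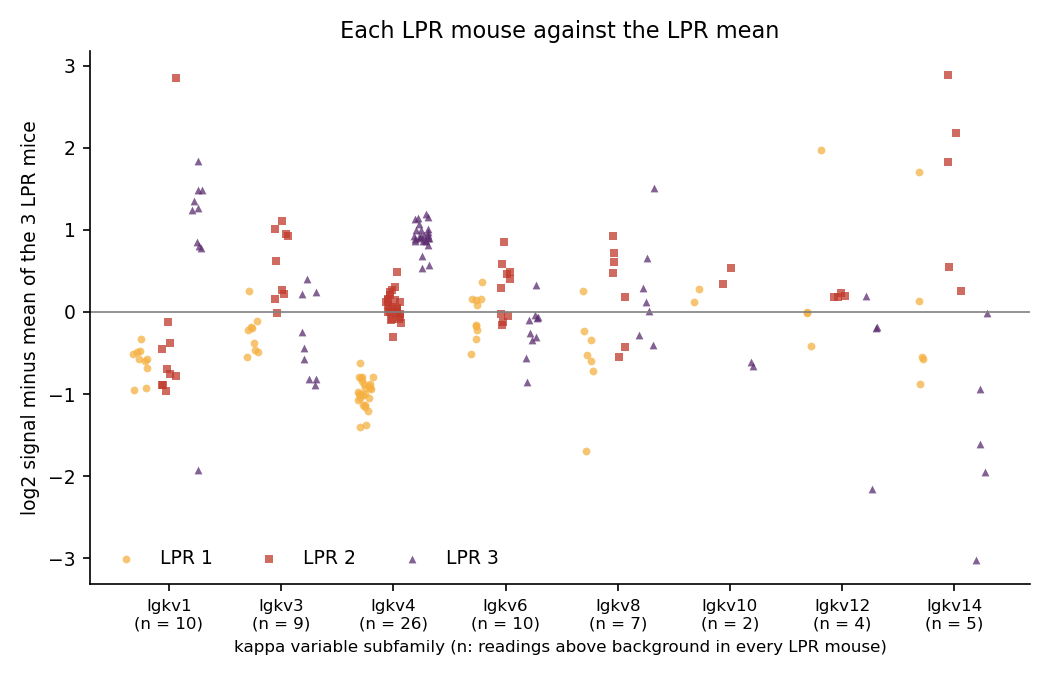
Log2 signal of each LPR mouse minus the mean of the 3 LPR mice (vertical axis) for probes of 8 kappa variable subfamilies (horizontal axis). Each point is a probe in a mouse (LPR 1 circles, LPR 2 squares, LPR 3 triangles), limited to probes above background in every LPR mouse. In Igkv4 the mice are in the same order in all 26 probes, and in Igkv14 LPR 2 is highest in 4 of 5.

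Single segments stood out in single mice, and the 5 with the widest range among LPR mice are named here after their values were seen. Igkv2-112 was read at 1.00 in LPR 2 and at -5.54 and -6.31 in LPR 1 and LPR 3, a range of 7.32, and was not tested because only 2 mice were above background. Igkv14-126 (A_66_P122898) was read at 2.72 in LPR 2, -0.03 in LPR 1 and -3.19 in LPR 3. The other Igkv14-126 probe, which shares 40 bases with it, had the same order at 3.22, 0.47 and -0.56. The call of A_66_P122898 (log2 change 6.62, SE 1.37, adjusted p = 0.0248 in limma) was lost when any 1 of MRL 1, MRL 2, MRL 3 or LPR 1 was left out, at adjusted p from 0.0623 to 0.0741. Igkv1-88 was also highest in LPR 2, at 0.30 against -3.47 and -4.47. Igkv12-38 was highest in LPR 1, with 1.84, 0.04 and -2.29 in LPR 1 to 3, and Igkv16-104, given above, was highest in LPR 3.

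At the other end, a few segments, also named after their values were seen, were almost equal in the LPR mice. Beside both Iglc3 probes, Igkv6-20 was the narrowest, with -4.59, -4.59 and -4.74 in MRL mice and 0.54, 0.42 and 0.39 in LPR mice. Its log2 change of 5.09 was close to the median of the members. Igkv12-44 and Igkv12-41 ranged over 0.38 and 0.39 among LPR mice, but over 2.72 and 3.18 among MRL mice.

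Not all transcripts of the 2 genomic windows rose. The windows also hold 12 probes that do not carry an immunoglobulin name, and of the 6 tested 3 were higher, 1 was lower and 2 did not pass. A530030E21Rik in the lambda window was bright and lay at means of 5.15 in MRL and 5.01 in LPR mice (log2 change -0.14, adjusted p = 0.660 in limma). Rprl1, a small RNA gene related to the RNA of ribonuclease P, fell by 1.23 on the log2 scale within the kappa window (SE 0.21, adjusted p = 0.0122 in limma). The unnamed transcript NAP062352-1, in the kappa window at chr6:69714492-69714551, rose by 5.65 (SE 0.75, adjusted p = 0.00383 in limma). It lies beside the probe of Igkv12-46 (chr6:69714643-69714702), whose log2 change was 6.38. Whether it belongs to that segment was not tested.

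The genes that work with light chains were examined in lists, with the brightest tested probe for each gene. They may be read against the 6.53% and 6.17% of all probes that were higher or lower. Of 8 heavy chain constant regions, the partners of light chains in an antibody, 7 were higher, with a median log2 change of 4.80. Igha was read at 3.24, 4.74 and 4.56 in MRL mice and at 8.34, 8.83 and 8.71 in LPR mice (log2 change 4.44, adjusted p = 0.000547 in limma), and here too the lowest mouse of each group was MRL 1 and LPR 1. Among the brightest probes, Ighg1 (5.82) and Ighg3 (5.08) rose most and Ighd (2.46), which marks naive B cells, rose least. Ighe (4.93, adjusted p = 0.0876 in limma) did not pass. A dimmer Igha probe, not well above background in any MRL mouse, had a fitted log2 change of 6.14. Within the shared slide side 1 of the 8 passed.

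Of the 18 tested genes of the B cell receptor and B cell identity, 11 were higher, 1 was lower and 6 did not pass, with a median of 2.18. Cd79b, a signalling partner of the receptor, rose by 2.83. It was read at -1.38, -1.21 and -0.77 in MRL mice and at 1.41, 1.90 and 1.84 in LPR mice, and the groups did not overlap. Pou2af1, a coactivator of immunoglobulin transcription, rose by 5.28 (SE 0.35, adjusted p = 0.000164 in limma). Fcrla, which was not well above background in any MRL mouse, was at least 6.33-fold higher by the approximate bound described above. Ms4a1, which encodes CD20, depended on the probe: the dimmer one rose by 4.99 (adjusted p = 0.00281 in limma), and the brightest gave -0.70 (adjusted p = 0.0497 in limma), a lower call that was lost under 15 of 20 alternatives, among them each of the 6 fits without 1 mouse. Likewise, of the 3 Cd22 probes tested, the brightest gave -0.03 and another gave -0.11, and neither passed. The remaining Cd22 probe, well above background in only 1 MRL mouse, rose by 3.47. Within the shared slide side 6 of the 18 genes were higher and 0 lower.

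Of the 18 genes of plasma cells and secretion, 11 were higher and 7 did not pass, with a median of 0.97. Jchain, which links antibody units into polymers, was read at 0.85, 1.90 and 1.88 in MRL mice and at 5.41, 6.41 and 6.28 in LPR mice. Its log2 change was 4.49 (SE 0.37, adjusted p = 0.000396 in limma), close to that of Igkc, and the lowest mouse of each group was again number 1. Mzb1 (4.35), a chaperone of antibody assembly, Irf4 (3.43) and Prdm1 (2.15), regulators of plasma cell formation, and Slamf7 (3.53) rose. Of general genes of the secretory pathway, Hspa5 (0.04), Hsp90b1 (0.07) and Xbp1 (0.42) did not pass, while Sdf2l1 (0.95) and Sec11c (0.85) did. Within the shared slide side 7 of the 18 were higher.

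Most genes that build light chains in early B cells did not pass or were not tested. Of the surrogate light chain and recombination genes, 4 were tested and 1 was higher, Vpreb3 (2.54, adjusted p = 0.00179 in limma), a call that was lost within the shared slide side. Vpreb1 (-0.17), Vpreb2 (-0.32) and Dntt (-0.25) did not pass, and the probes of Igll1, Rag1 and Rag2 were not tested because they were too dim. Among genes of hypermutation and class switching, Ung (-0.35), Msh6 (-0.10), Polh (-0.04), Apex1 (0.05) and Apex2 (0.27) did not pass in limma.

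Several markers of the cells that make light chains were higher in LPR mice, as the light chains were. Linear signals were summed in units of each array's 75th percentile. For 7 plasma cell markers the sum was 31.9, 34.9 and 46.7 in MRL mice and 80.4, 153 and 138 in LPR mice. Of the 7, 6 were higher, and Xbp1 (log2 change 0.42) did not pass. Bright genes weigh most in such a sum. The log2 level of Xbp1 was 4.86, 4.91 and 5.39 in MRL mice, against 0.85, 1.90 and 1.88 for Jchain. The MRL sum is therefore mostly Xbp1, a general gene of secretion, and does not measure plasma cells in MRL mice. For 6 B cell markers the sum was 1.55 to 1.67 in MRL and 4.27 to 5.52 in LPR mice, with 3 higher and 1 lower. The probes summed for Pax5 and Cd22 were above background in all mice and did not pass. The lower marker is the Ms4a1 probe described above. Another probe of Ms4a1 and another of Cd22 rose, while a further Cd22 probe did not pass. The 6 T cell markers summed to 2.46 to 2.86 in MRL and 8.21 to 9.62 in LPR mice, with 5 higher, and the 4 macrophage markers to 13.9 to 17.2 and 33.3 to 38.4, with 4 higher. The 4 proximal tubule markers summed to 586 to 656 in MRL and 448 to 494 in LPR mice, with 1 lower. The part of these cell types in the light chain signal was not tested. The probes follow a reference genome of another strain, and whether MRL sequences or hypermutated ones bind less well to them was not tested.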

How the data were processed

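Total RNA of 6 whole kidneys, 3 of MRL and 3 of LPR mice, was hybridised in 1 colour to Agilent mouse arrays, 1 mouse per array. The authors deposited scanner output of Agilent Feature Extraction 12.0.3.1, whose processed signal is an intensity, subtracted for background and not normalized between arrays. They also deposited a table of ratio values, which equals that signal divided by a constant for each array and was used as an alternative. Probe positions are those of build mm9 in the array annotation. RefSeq names were used for the type of each segment.

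The log2 processed signal was shifted by the 75th percentile of each array. Spots with outlier flags (73 to 90 per array) were left out and spots of a probe were averaged. Probes well above background on at least 3 of 6 arrays were tested with limma 3.58.1 (R 4.3.3). P-values were adjusted by Benjamini and Hochberg's method over 39924 probes, and the threshold was 0.05. Differences within arrays were tested by exact permutation in scipy 1.17.1 and Python 3.11.15, and figures drawn with matplotlib 3.10.9. Probe sequences were aligned with edlib 1.3.9.post1. The fit was tested on simulated data. P-values of limma set the difference between the groups against the spread among the 3 mice within each group. That spread is pooled over both groups and drawn toward that of other probes.

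Groups came from the sample labels. The probes named were the constant regions, the lambda probes, the 8 largest and 8 smallest changes among kappa variable probes above background on all arrays, those that did not pass, segments whose probes differed in call, and the 5 largest lower bounds. Others are named with that remark. The members, lists and rules were chosen with earlier results of these data known. The 20 alternatives were scaling by quantiles, by the median, or by the percentile of detected probes, background correction by normexp (offset 50), the authors' values, dropping the filter or asking for detection on all 6 arrays, raising dim signals to the detection limit, keeping outlier spots, an intensity trend, the slide side as a block or within the shared side, the replicate number as a block, the methods' test (equal variance, per probe) and leaving out each of the 6 mice. Some genes of the lists are not reported here by name.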

Additional observations from a re-analysis of the deposited data

How the results depend on the processing

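The higher calls in the light chain loci held their direction under all 20 alternatives, with a positive change in 100 or 101 of the 101 tested members where all were tested. Leaving out 1 mouse gave 82 to 90 higher calls (82 without LPR 2), of which 82 to 88 were among the 95, with 76 to 84 kappa calls, 6 lambda calls, 80 to 86 calls of at least 10-fold and medians from 4.80 to 5.43. Within the shared slide side 47 light chain and 41 kappa probes were higher and 42 at least 10-fold, and with the side as a block 59 kappa probes were higher. Restricting to probes above background on all 6 arrays left 62 light chain and 57 kappa probes, all higher, and 60 at least 10-fold, because fewer were tested. Normexp gave a median of 3.84 and 65 calls of at least 10-fold. With no filter 84 of 113 members were higher, and 1 probe, Gm10088 in the lambda window, was lower. The methods' test called 67. Shares of all probes called were counted for the main fit, for probes above background on all 6 arrays and for the slide side fits. The other counts given here have no such share to be read against. Igkv16-104, which did not pass, turned to -2.92 with the slide side as a block and within the shared side, and lay between -0.81 and 1.77 when 1 mouse was left out, with -0.09 without MRL 1, -0.34 without LPR 2 and -0.81 without LPR 3. The cause was not tested, except that LPR 1, the lowest mouse there, is the only LPR mouse on the shared side. Deviations of same-numbered mice correlated at 0.12, 0.02 and 0.01 and those of differently numbered mice at -0.07 to 0.05. With 3 mice in each group these values cannot exclude that replicate numbers pair the mice. With the replicate number as a block 89 probes were higher, 83 of them kappa. The number of arrays, and signals near background in MRL mice, limit the fold changes of dim segments.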
